A study of Rattus norvegicus with 15 samples.

Results

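The genes described here encode the contractile proteins of smooth muscle, namely the actins Acta2 and Actg2, the myosin heavy chain Myh11, the myosin light chain Myl9 and its kinase Mylk, and the thin-filament proteins Tagln, Cnn1, Cald1, Tpm1 and Tpm2. They were chosen by gene symbol, as all probe sets whose platform annotation gives 1 symbol and that symbol is a member's. This gave 26 probe sets for all 10 genes, of 26202 probe sets and 10969 named genes on the 3 rat chips (Affymetrix A, B and C). A further 4 probe sets carry the symbols of both Acta2 and the heart actin Actc1 and were not used as members.

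The tissue was rat ductus arteriosus, the fetal vessel between pulmonary artery and aorta that closes after birth, and aorta (arch and thoracic part). The 5 states were newborn ductus (3 h after vaginal birth), ductus of day 19 fetuses delivered from dams kept in 100% oxygen for 3 h (oxygen ductus), ductus of day 19 fetuses of normoxic dams (fetal ductus), newborn aorta (3 h) and fetal aorta (day 19). Vessels were dissected in medium gassed with 12.5% oxygen for newborns and 2.5% for fetuses, so stage and gas cannot be told apart. Newborns came by vaginal delivery and fetuses by caesarean section, and strain, sex and the number of animals behind an array are not given in the labels. The labels also give no gestational age for newborns. Birth below stands for newborn over fetal, where delivery and any development between day 19 and delivery cannot be told apart. Each state was hybridised to 1 array of each chip type, so a ratio compares 2 arrays, has no replicate error, and the number of arrays limits the precision.

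Contraction of smooth muscle follows a rise in calcium, which lets calmodulin switch on myosin light chain kinase. The kinase phosphorylates the regulatory light chain, and myosin then pulls on actin filaments that carry tropomyosin, caldesmon, calponin and transgelin. Muscular arteries make these proteins in large amounts as they mature, under serum response factor, which binds CArG boxes, and the ductus is the great vessel that uses them to shut its lumen at birth. In bulk tissue, fewer smooth muscle cells and less of the RNA per cell cannot be told apart.

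Signals are linear intensities scaled before deposit to a common mean per array. Each chip had a floor, its median signal over all 5 states (150, 242 and 243 on A, B and C), and lower signals were raised to it before ratios were taken. The main reading of a gene was its probe set of highest mean signal, other probe sets are given beside it, and a gene counts as higher or lower at a fold of at least 1.5. As a measure of technical disagreement, log2 ratios of probe sets of the same gene had a standard deviation of 0.28 to 0.34 over all genes in the 4 comparisons without the oxygen ductus. It was 0.41 for the oxygen over the fetal ductus and 0.48 for the newborn over the oxygen ductus. Over the 6 members with several probe sets the same measure was larger in 4 of the 6 comparisons. For these members it was 0.46 for the newborn vessels, 0.40 for the fetal vessels and 0.46 for newborn over fetal ductus. It was 0.30 for newborn over fetal aorta. With the oxygen ductus it was 0.36 for oxygen over fetal ductus and 0.49 for newborn over oxygen ductus. The oxygen ductus arrays also stood apart in the control probe sets for RNA quality: the 3' over 5' signal ratio for beta-actin was 2.54 to 3.26, against 1.19 to 1.51 on the 12 arrays of the other states. For Gapdh it was 1.69 to 2.50 on the oxygen arrays, against 1.26 to 1.58 on the others, and for hexokinase 3.44 to 12.5, against 2.47 to 4.76.

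Of 8 smooth muscle markers, 6 were on the chips and 0 of them were under the floor in any state, but 5 of the 6 are members and the other is Des (desmin). Of the members, 9 lay in the brightest 5% of named genes, and 25 of their 26 probe sets were above the floor in all 5 states. The exception was a dim Myh11 probe set in the oxygen ductus. Their promoters are shown first because SRF control through CArG boxes is the textbook link between these genes. RefSeq promoter windows (assembly GRCr8, 250 bases before to 50 after the start) were at hand for 7 members, with 8 windows, and not for Myh11, Tagln and Myl9.

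A CArG box is CC, then 6 bases that are A or T, then GG. No member window held one in this strict form, a motif found in 1.64% of 33469 windows. Allowing 1 inner base to be G or C, the Acta2 window held 2 such boxes, as did 0.846% of windows, and no other member window held one (9.42% of all windows held at least 1). The MCAT motif CATTCC, read on both strands, was found in windows of 4 members (Acta2, Cald1, Mylk and Tpm1) and in 14.2% of all windows. The stretches that hold these motifs are given 5' to 3' with the motifs in capitals, and they lie at chr1:241172563-241172714 (minus strand), chr4:64233046-64233081 (plus), chr11:79498590-79498625 (minus) and chr8:76543426-76543461 (minus).
Acta2: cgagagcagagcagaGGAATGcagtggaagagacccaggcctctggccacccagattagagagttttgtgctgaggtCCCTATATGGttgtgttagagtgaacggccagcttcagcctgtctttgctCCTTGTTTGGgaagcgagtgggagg
Cald1: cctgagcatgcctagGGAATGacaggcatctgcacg
Mylk: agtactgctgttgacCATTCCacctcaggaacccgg
Tpm1: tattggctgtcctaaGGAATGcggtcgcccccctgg
The Acta2 stretch carries MCAT read from the opposite strand, then both CArG-like boxes, starting 134 and 84 bases before the gene's start. These matches are a description of the letters only.

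**Figure D1:**
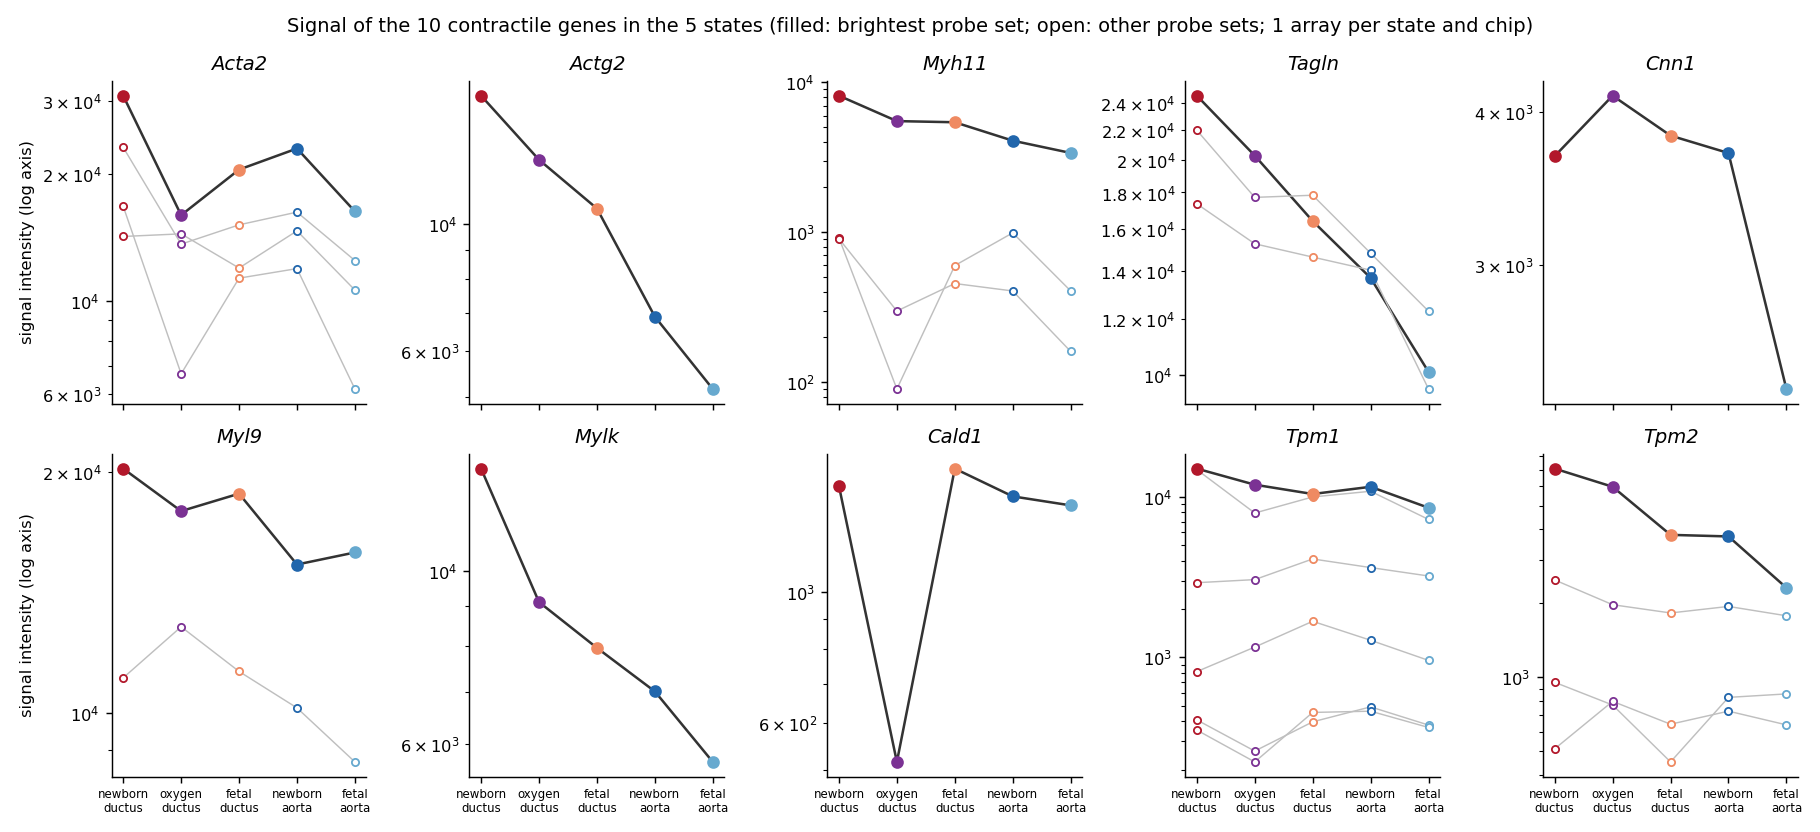
Signal intensity (log axis, scaled separately in each panel) of the 10 contractile genes in newborn, oxygen and fetal ductus and newborn and fetal aorta, 1 array per state and chip, with the brightest probe set filled and joined in black and other probe sets open. At the brightest probe set the newborn ductus is the highest state for 8 of 10 genes, and the fetal aorta the lowest for 7 of 10.

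For Actg2, Myh11, Tagln, Mylk and Tpm2 the states fell in 1 order from high to low: newborn ductus, oxygen ductus, fetal ductus, newborn aorta, fetal aorta. The other members each had another order. The share of all genes in this order was not counted, and parts of it are near ties. Myh11 had 5512 in oxygen and 5415 in fetal ductus, and Tpm2 had 3804 in fetal ductus and 3748 in newborn aorta. With quantile normalisation Myh11 and Tagln were lower in the oxygen than in the fetal ductus (log2 ratios of -0.07 and -0.03). At its brightest probe set the newborn ductus was the highest of the 5 states for 8 of 10 genes (all but Cnn1 and Cald1), against 16.9% of the 6246 genes above the floor in all states. The fetal aorta was the lowest for 7 of 10 (17.1% of genes), and both held for 6 of 10 (4.82%), namely Actg2, Myh11, Tagln, Mylk, Tpm1 and Tpm2. Without the oxygen ductus, a choice made after seeing the data, the counts were 8, 9 and 7 of 10, against 21.9%, 21% and 8.44% of genes above the floor in the 4 states. The ductus was above the aorta at both stages for 9 of 10 members (26.3% of genes), and the newborn above the fetus in both vessels for 7 of 10 (26.9%).

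Among the filament-forming proteins, Actg2, the gamma smooth muscle actin, had the widest range, 3.24-fold, and is read by a single probe set. Its signal was 16697 in newborn, 12918 in oxygen and 10627 in fetal ductus, against 6892 in newborn and 5158 in fetal aorta. Each ductus array was above each aorta array. Acta2, the smooth muscle alpha-actin, had 30805, 15987 and 20532 in newborn, oxygen and fetal ductus, against 23050 and 16318 in newborn and fetal aorta. The newborn of each vessel was above its fetus, and the oxygen ductus lay just under the fetal aorta. Of the 3 other Acta2 probe sets, 2 likewise had the oxygen ductus below the fetal ductus, while the third had 14221 in newborn and 14429 in oxygen ductus, against 11959 in fetal ductus.

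The 4 probe sets shared by Acta2 and Actc1 had another pattern. Leaving out 1 with signals of at most 11.5, they had 2421 to 3007 in newborn, 4293 to 7076 in oxygen and 6283 to 9146 in fetal ductus, against 4138 to 5480 in newborn and 3234 to 4501 in fetal aorta. They were lowest in the newborn ductus and highest in the fetal ductus, as was Actc1, with 3190 in newborn and 9620 in fetal ductus.

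Myh11, the heavy chain of smooth muscle myosin, had signals of 8143, 5512 and 5415 in newborn, oxygen and fetal ductus, against 4080 and 3379 in newborn and fetal aorta. All ductus arrays were above both aorta arrays. Of its 2 dimmer probe sets, 1 kept that direction at each stage, with 904 and 455 in newborn and fetal ductus against 405 and 160 in newborn and fetal aorta. The other had 916 and 599 in newborn and fetal ductus, against 990 and 406 in newborn and fetal aorta, so there the vessels differed in the fetus and hardly in the newborn.

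The switch on myosin consists of Myl9, the regulatory light chain, and Mylk, the kinase that phosphorylates it. Myl9 varied least of all members, over a 1.32-fold range, with 20173, 17858 and 18775 in newborn, oxygen and fetal ductus, against 15319 and 15858 in newborn and fetal aorta. The ductus arrays were above the aorta arrays, with little difference between stages. Mylk had 13516, 9117 and 7965 in newborn, oxygen and fetal ductus, against 7005 and 5689 in newborn and fetal aorta, a 2.38-fold range, so the kinase probe set differed between states more than that of its substrate. Mylk is read by a single probe set.

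The thin-filament proteins divided. Tagln (transgelin, also called SM22) had 24564, 20262 and 16421 in newborn, oxygen and fetal ductus, against 13678 and 10114 in newborn and fetal aorta, and its 2 probe sets on chip A kept the ductus above the aorta at each stage. Tpm2, the beta-tropomyosin, had 7076, 5970 and 3804 in newborn, oxygen and fetal ductus, against 3748 and 2317 in newborn and fetal aorta. Both were highest in the newborn ductus and lowest in the fetal aorta. Cnn1 (calponin, which binds actin and inhibits the myosin motor) had 3681, 4122 and 3825 in newborn, oxygen and fetal ductus, against 3702 and 2378 in newborn and fetal aorta. It was low in the fetal aorta alone. Cald1 (caldesmon, another inhibitor on actin) had 1515, 515 and 1622 in newborn, oxygen and fetal ductus, against 1455 and 1405 in newborn and fetal aorta, so it was low in the oxygen ductus alone. Cnn1 and Cald1 are each read by a single probe set, so no second reading stands beside these values.

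Tpm1, the alpha-tropomyosin, is read by 6 probe sets, which disagreed. Its gene makes several muscle and non-muscle transcripts by alternative exons, and which of them each probe set reads was not determined. The brightest probe set had 14998, 11911 and 10419 in newborn, oxygen and fetal ductus, against 11557 and 8553 in newborn and fetal aorta, and the next brightest likewise had 14782 in newborn and 9989 in fetal ductus. Both probe sets next in brightness ran the other way in the ductus, with 2919 and 815 in newborn, 3052 and 1159 in oxygen and 4104 and 1678 in fetal ductus. On the dimmer of this pair the newborn ductus was thus 2.06-fold lower than the fetal ductus, where the brightest was 1.44-fold higher. In the aorta all 6 Tpm1 probe sets were higher in the newborn, by log2 ratios of 0.17 to 0.58. Tpm2 probe sets disagreed too: in the fetus 1 of them, on chip B, was 1.89-fold lower in the ductus than in the aorta where the brightest was 1.64-fold higher. Those on chip C were nearly equal in the fetal vessels, at log2 ratios of 0.04 and 0.01.

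The newborn ductus was set against the newborn aorta to ask what distinguishes the closing vessel after birth. At least 1.5-fold higher in the ductus were 5 of 10 members, against 6.16% of 7528 genes, and 0 were lower, against 5.98% of genes. They were Actg2 (2.42-fold), Myh11 (2.00-fold), Mylk (1.93-fold), Tpm2 (1.89-fold) and Tagln (1.80-fold). The median log2 ratio of the members was 0.63, and that of all genes -0.01. Tpm1 was at 0.38 at its brightest probe set and at -0.65 to 0.45 on the others. Probe sets of the higher members disagreed as well. Tpm2 was at 0.92 at its brightest and at -0.51 to 0.36 on the others. Myh11 was at 1.00 at its brightest and at -0.11 and 1.16 on the others, and Tagln at 0.84 and at 0.31 and 0.57. Cnn1 (-0.01) and Cald1 (0.06) were nearly equal in the vessels. With all probe sets of a gene averaged the count was 3 and the median 0.30.

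Fat markers moved with this comparison, their summed signal being 1328 in newborn ductus and 9747 in newborn aorta (8 genes, of which 5 were under the floor in newborn ductus and 1 in newborn aorta). Of the 7 that could be compared all were at least 1.5-fold lower in the ductus. Their part in the contractile ratios was not tested. In the fetus fat markers summed to 698 in ductus and 831 in aorta, with 6 of 8 under the floor in each.

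In the fetus, 5 of 10 members were at least 1.5-fold higher in ductus than in aorta, against 4.2% of 7610 genes, and 0 were lower, against 5.1%. These were Actg2 (2.06-fold), Tpm2 (1.64-fold), Tagln (1.62-fold), Cnn1 (1.61-fold) and Myh11 (1.60-fold). Tpm2 was at a log2 ratio of 0.72 at its brightest probe set and at -0.92 to 0.04 on the others. Other probe sets of Myh11 were at 0.56 and 1.51, and those of Tagln at 0.54 and 0.61. All 10 members had positive log2 ratios at the brightest probe set, from 0.21 (Cald1) to 1.04 (Actg2), with a median of 0.58. Heart muscle markers moved with this comparison. Of the 12 on the chips, 11 were above the floor in a vessel, all 11 at least 1.5-fold higher in the fetal ductus, and their summed signal was 34513 in fetal ductus and 15816 in fetal aorta, with 1 of 12 under the floor in fetal ductus and 4 in fetal aorta. In newborns their sum was the other way, 16035 in ductus and 20598 in aorta. Erythroid markers (5 genes) summed to 36456 in fetal ductus and 55110 in fetal aorta, and nerve and chromaffin markers (4 genes) to 601 in fetal ductus and 1466 in fetal aorta. The part of any of them in the contractile ratios was not tested.

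**Figure D2:**
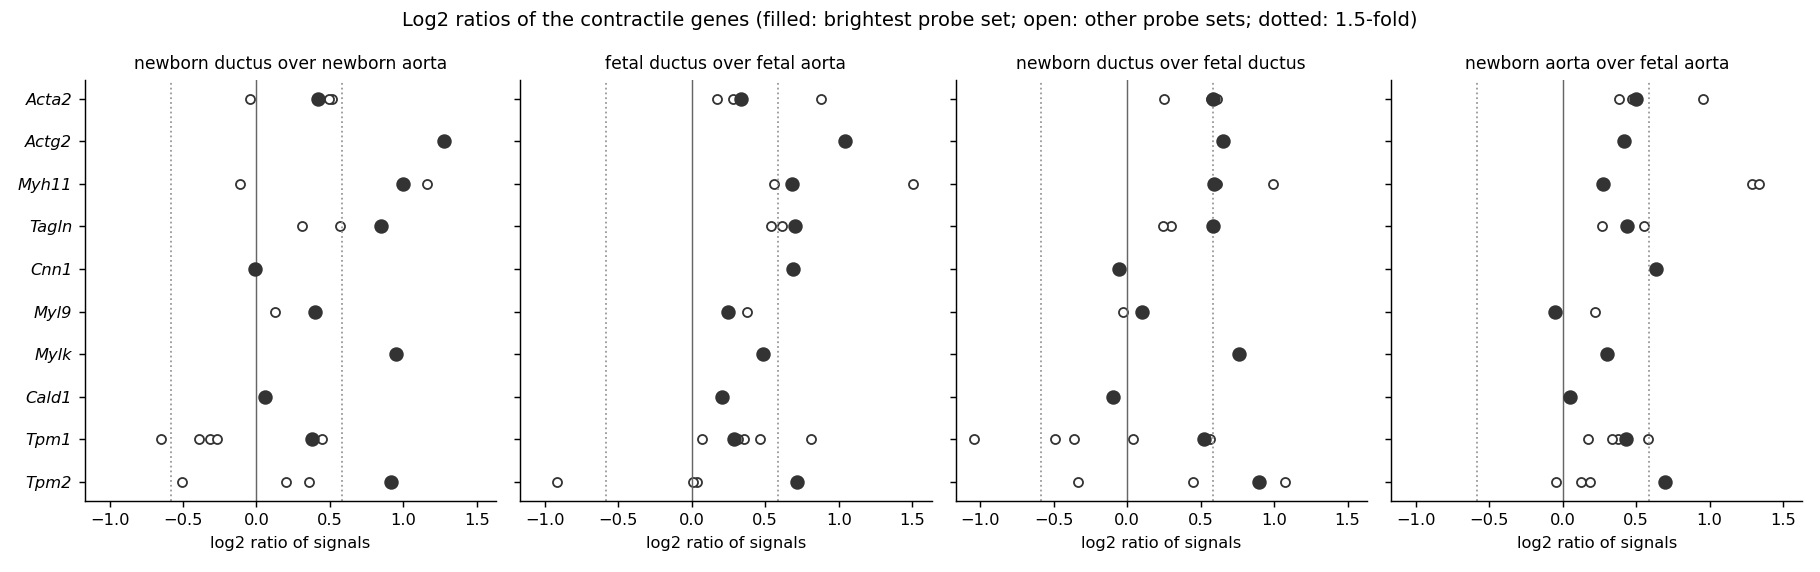
Log2 ratios of signals of the contractile genes for newborn ductus over newborn aorta, fetal ductus over fetal aorta, newborn over fetal ductus and newborn over fetal aorta, each point a probe set (filled: brightest of its gene) and dotted lines at 1.5-fold. Filled points lie right of 0 in the fetal vessels for all 10 genes, and the Tpm1 probe sets spread to both sides of 0 in the comparisons with the newborn ductus.

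The newborn ductus was set against the fetal ductus, which spans birth and any time between day 19 and delivery. At least 1.5-fold higher were 5 of 10 members, against 7.56% of 7551 genes, and 0 were lower, against 9.59%. They were Tpm2 (1.86-fold), Mylk (1.70-fold), Actg2 (1.57-fold), and Myh11 and Acta2 just past the threshold (log2 ratios of 0.59 each), with Tagln just below it (0.58). This count moved with the scaling. Quantile normalisation left 1 member past the threshold, Tpm2, with a median of 0.36 in place of 0.58. Median centring put 7 past it, with a median of 0.64. The Tpm2 log2 ratio was 0.90 at its brightest probe set and -0.33 to 1.08 on the others. Heart muscle markers were lower in the newborn ductus for 9 of 11 genes, and endothelial markers higher for 3 of 6 (8 genes summing to 9186 in newborn and 6238 in fetal ductus). Their part in the contractile ratios was not tested.

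In the aorta the newborn was at least 1.5-fold above the fetus for 2 of 10 members, Tpm2 (1.62-fold) and Cnn1 (1.56-fold), against 7.57% of 7676 genes, and 0 were lower, against 11%. The median log2 ratio was 0.43, and 3 members were past the threshold with median centring. Markers of other cells moved too. In the newborn aorta, all 7 fat markers compared were at least 1.5-fold higher, as were 3 of 7 endothelial (1 lower) and 3 of 8 heart muscle markers (0 lower). All 3 nerve and chromaffin markers compared and 3 of 6 leukocyte markers (1 higher) were lower. Their part in these ratios was not tested. Averaging probe sets gave Myh11 a log2 ratio of 0.97, where the brightest had 0.27. The birth change of the ductus minus that of the aorta had a median of 0.15 over the members, which no replicate error can be set against, and of 0.02 with quantile normalisation. It was largest in size for Cnn1, at -0.69, where the newborn ductus was 0.06 below its fetus on the log2 scale and the newborn aorta 0.64 above. Mylk followed at 0.46.

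**Figure D3:**
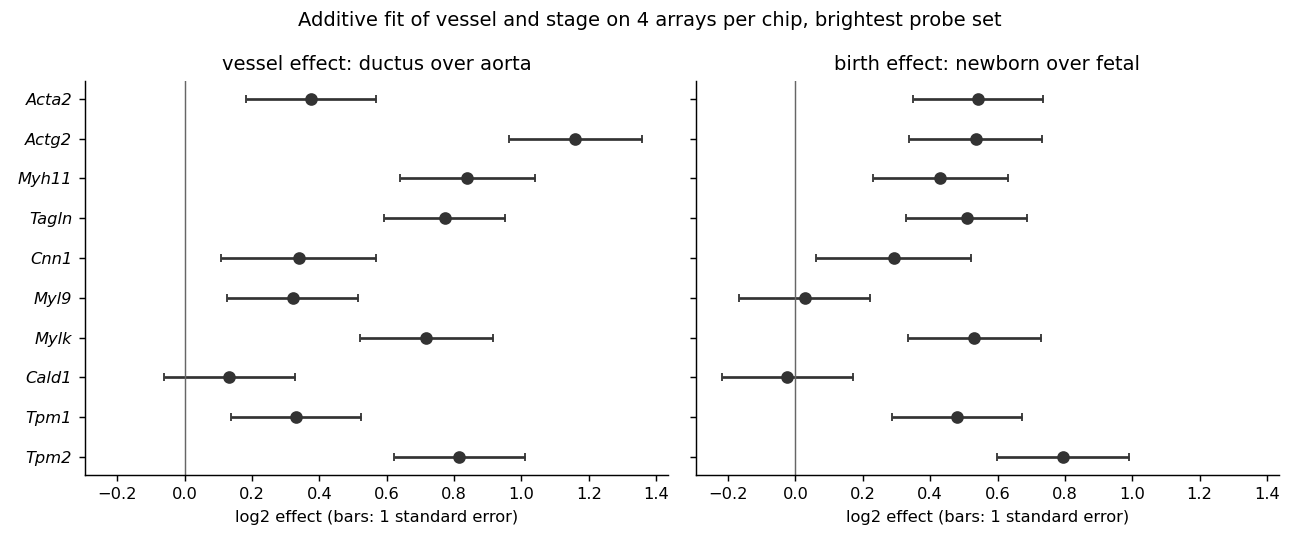
Log2 effects of vessel (ductus over aorta) and birth (newborn over fetal) from an additive limma fit on 4 arrays per chip, at each gene's brightest probe set, with bars of 1 standard error. All 10 vessel effects lie above 0, from 0.13 to 1.16, and Myl9 and Cald1 have birth effects near 0.

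An additive model of vessel and stage was fitted by limma to the 4 arrays of a chip other than the oxygen ductus. It gave the single error estimate these data allow, with the vessel-by-stage difference as residual on 1 degree of freedom. This error was moderated over the probe sets of a chip, with prior degrees of freedom of 6.60, 9.83 and 5.94 on A, B and C. The standard errors (SE) thus draw largely on other probe sets. For vessel, 0 of 26 member probe sets passed a limma adjusted p under 0.05, and 0.0145% of all 13810 probe sets passed as higher in the ductus. At an unadjusted p under 0.05 there were 9 of 26, all higher in the ductus, and 1070 of 13810 in either direction. Actg2 had the largest vessel effect among brightest probe sets, 1.16 (SE 0.20, limma adjusted p = 0.149, ductus above aorta at both stages). Myh11 followed at 0.84 (SE 0.20), with Tpm2 at 0.82 (SE 0.20), Tagln at 0.77 (SE 0.18) and Mylk at 0.72 (SE 0.20). Other probe sets had 0.22 and 1.33 for Myh11, 0.55 and 0.46 for Tagln, and 0.20, -0.36 and -0.25 for Tpm2. Effects were positive for all 10 genes at the brightest probe set and for 22 of 26 probe sets, against 6616 of all 13810.

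For birth, 1 of 26 member probe sets passed, against 0.818% of all probe sets passing as higher in newborns. It was the dimmest of Myh11, with an effect of 1.17 (SE 0.20, limma adjusted p = 0.045, higher in newborns in both vessels). The brightest Myh11 probe set had 0.43 (SE 0.20, limma adjusted p = 0.30), so the call rests on 1 of 3 probe sets, and it was lost with quantile normalisation and with no filter on low signals. No gene passed at its brightest probe set, where Tpm2 came nearest at 0.79 (SE 0.20, limma adjusted p = 0.092). At an unadjusted p under 0.05 there were 11 of 26 member probe sets, all higher in newborns, and 2575 of all 13810, of which 1176 were higher. Letting the error follow signal intensity raised the calls to 5 member probe sets for vessel and 9 for birth, all higher in ductus or newborns. Over all 13810 probe sets the calls in either direction rose too, from 5 to 47 for vessel and from 197 to 528 for birth.

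**Figure D4:**
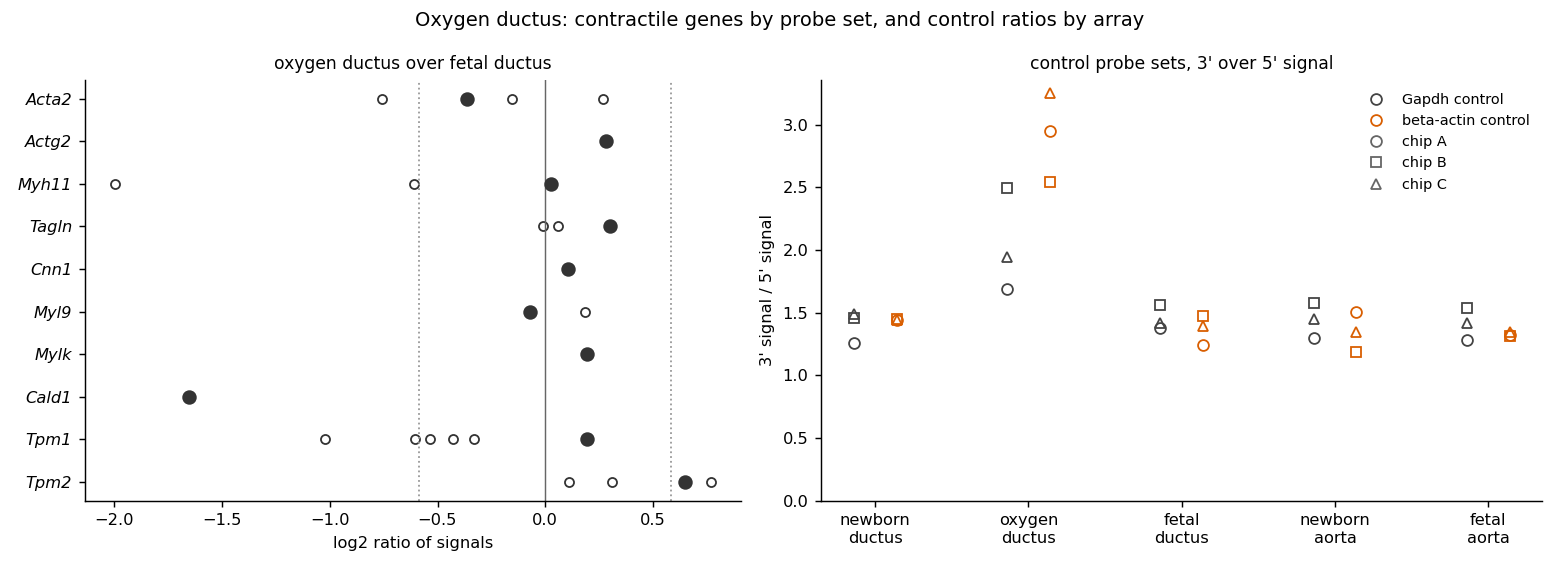
Left, log2 ratios of oxygen over fetal ductus for each probe set of the contractile genes (filled: brightest, dotted lines: 1.5-fold), and right, the 3' over 5' signal ratio of the Gapdh and beta-actin controls by state and chip. The oxygen ductus arrays have the highest control ratios, up to 3.26, and probe sets of Acta2, Myh11 and Tpm1 spread widely on the left.

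The oxygen ductus was set against the fetal ductus to ask whether raised maternal oxygen gives the newborn state before birth. Of the members 1 of 10 was at least 1.5-fold higher, Tpm2 (1.57-fold), against 4.44% of 7457 genes, and 1 was lower, Cald1 (3.15-fold), against 5.38%. The median log2 ratio was 0.15, and -0.03 with quantile normalisation. Probe sets of a member disagreed. Acta2 ran from -0.76 on chip C to 0.27, Tpm1 from -1.02 to 0.19, and Myh11 from 0.03 at its brightest to at least 4.00-fold lower on the probe set whose oxygen signal, 89.9, was under the floor. The part of the higher 3' over 5' control ratios of these arrays in the low readings of Cald1, Acta2, Myh11 and Tpm1 was not tested.

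The newborn over the oxygen ductus had 2 of 10 members at least 1.5-fold higher, Cald1 (2.94-fold) and Acta2 (1.93-fold), against 10.5% of 7534 genes, and 0 lower, against 14.5%. This comparison shares the oxygen arrays with the previous one and the newborn arrays with the comparison of birth. Actg2 was 1.29-fold, Tagln 1.21-fold and Tpm2 1.19-fold higher, and Cnn1 had a log2 ratio of -0.16. For Actg2, Myh11, Tagln, Mylk, Tpm1 and Tpm2 the oxygen ductus thus lay between the newborn and the fetal ductus at the brightest probe set. The share of all genes in this place was not counted. For oxygen over fetal ductus the median log2 ratio was 0.15 both for the members and for the 540 other genes in the brightest 5%. For newborn over oxygen ductus it was 0.35 for the members and -0.13 for the others. With quantile normalisation, however, Myh11 and Tagln in the oxygen ductus were below the fetal ductus (log2 ratios of -0.07 and -0.03). With probe sets averaged so were Myh11 (-0.86) and Tpm1 (-0.46), since all their other probe sets read lower in the oxygen than in the fetal ductus. Heart muscle markers were lower in newborn than oxygen ductus for 9 of 11 genes, and endothelial markers higher for 4 of 6 and fat markers for 3 of 3, and their part was not tested.

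**Figure D5:**
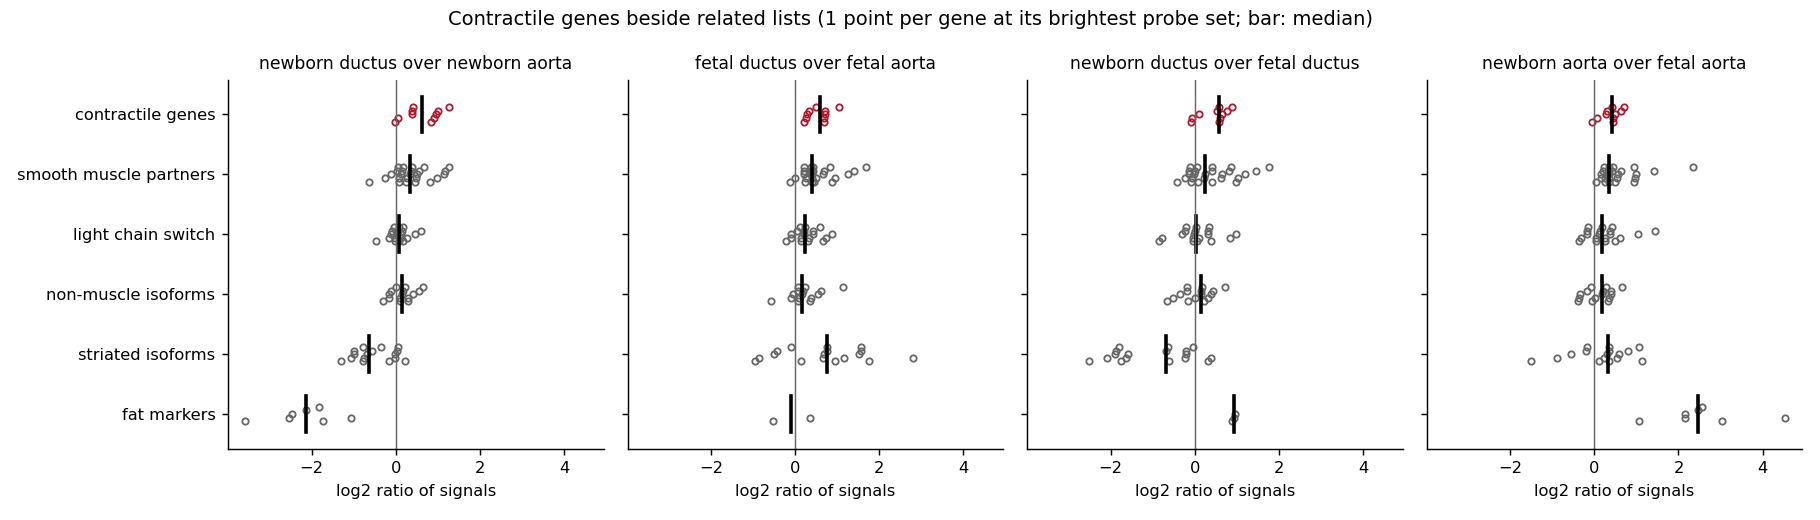
Log2 ratios of signals for the 10 contractile genes and for lists of related genes and fat markers, each point a gene at its brightest probe set above the floor on at least 1 of both arrays (points with 1 array at the floor are lower bounds in size) and bars at the median. In newborn over fetal ductus the contractile median is 0.58, the light chain switch lies at 0.03 and striated isoforms at -0.69.

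Further proteins of the smooth muscle unit had smaller ratios as a list, with medians over 25 genes of 0.34 for newborn ductus over newborn aorta, 0.41 for fetal ductus over fetal aorta, 0.25 for newborn over fetal ductus and 0.35 for newborn over fetal aorta. At least 1.5-fold higher were 6, 8, 9 and 7 of 25 genes, against 6.16%, 4.2%, 7.56% and 7.57% of all genes. Lower were 1, 0, 0 and 0, against 5.98%, 5.1%, 9.59% and 11%. Synpo2, which binds actin and alpha-actinin, was 2.40-fold and 2.37-fold higher in ductus than aorta of newborn and fetus, and Pdlim3, an actinin-associated protein, 2.21-fold and 3.23-fold. Des, the muscle intermediate filament protein, was 3.42-fold and 5.10-fold higher in newborn than fetus of ductus and aorta, and the integrin Itga8 2.75-fold and 1.97-fold. Itga7, another integrin, was the 1 gene lower in newborn ductus than newborn aorta, by 1.55-fold. Srf, the factor that binds CArG boxes, had log2 ratios of 0.25, 0.45, 0.21 and 0.42 in these 4 comparisons, and its cofactor Mrtfa had -0.11, 0.20, -0.15 and 0.16.

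The genes that switch light chain phosphorylation had list medians nearer 0. Over 18 or 19 genes for calmodulin, myosin phosphatase, cyclic GMP signalling and related steps the medians were 0.07, 0.22, 0.03 and 0.19 in the same order. Higher by 1.5-fold were 1 of 19, 4 of 18, 2 of 18 and 3 of 19 genes, against 6.16%, 4.2%, 7.56% and 7.57% of all genes. Lower were 0, 0, 2 and 0, against 5.98%, 5.1%, 9.59% and 11%. Ppp1r12a, the targeting subunit of myosin phosphatase, was 1.51-fold and 1.82-fold higher in ductus than aorta of newborn and fetus. Ppp1r14a, the phosphatase inhibitor CPI-17, was 1.57-fold higher in fetal ductus than fetal aorta and 2.04-fold higher in newborn than fetal aorta. Gucy1b1, a subunit of the nitric oxide receptor, was 1.81-fold lower in newborn than fetal ductus.

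The list of non-muscle isoforms also holds other cytoskeletal genes, among them Vim, Cfl1, Pfn1, Tmsb4x and Actn4. Its medians were 0.15, 0.16, 0.15 and 0.19 over 15 genes. At least 1.5-fold higher were 1, 2, 1 and 1 of them, against 6.16%, 4.2%, 7.56% and 7.57% of all genes. Lower were 0, 0, 1 and 0, against 5.98%, 5.1%, 9.59% and 11%. Myh10, the non-muscle myosin IIB heavy chain, had 4736 in newborn and 7506 in fetal ductus. It was thus 1.59-fold lower in the newborn ductus, opposite to Myh11 and also opposite to the median of its own list. Of the 15 genes it was the 1 lower by at least 1.5-fold. In the same comparison the non-muscle tropomyosin Tpm4 had a log2 ratio of 0.18. The list of striated isoforms also holds troponin genes. Its median was 0.75 over 17 genes in fetal ductus over fetal aorta, and -0.69 in newborn over fetal ductus. In the latter 11 were lower and 0 higher, against 9.59% and 7.56% of all genes. Of these, Myl2 was 5.68-fold and Tnnt2 4.23-fold lower in the newborn ductus. The list shares Actc1, Myh6, Myh7 and other genes with the heart markers.

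Genes with the pattern most like the mean of the members over the 5 states were sought among 1012 genes that spanned at least 2-fold and were above the floor in all states. By Pearson's r, which with 5 states that share arrays with the members is a description only, they were Adamts1 (0.999), Synpo2 (0.996), Ncam1 (0.992), Frzb (0.986), Edn1 (0.986), Eef2k (0.982), Dmpk (0.981) and Kcnk3 (0.977). Edn1 encodes endothelin-1, a constrictor, and had 672, 390 and 413 in newborn, oxygen and fetal ductus, against 398 and 258 in newborn and fetal aorta. The metalloprotease gene Adamts1 spanned 6.24-fold, with 4325 in newborn ductus and 694 in fetal aorta. Among the members themselves r with their mean ran from 0.69 (Cnn1) to 0.98 (Myh11), apart from Cald1 at 0.03.

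The members are bright genes. The other 540 genes in the brightest 5% had medians of 0.01 for newborn ductus over newborn aorta, 0.03 for the fetal vessels, 0.01 for newborn over fetal ductus and 0.06 for newborn over fetal aorta. At least 1.5-fold higher were 3.89%, 5.37%, 6.85% and 7.22% of them. For oxygen over fetal ductus their median was 0.15, the same as that of the members, with 3.52% higher and 0.556% lower. For newborn over oxygen ductus it was -0.13, with 7.04% higher and 12.8% lower.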

How the data were processed

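Each of 5 states of ductus or aorta was hybridised to 3 Affymetrix rat chips, 15 arrays. The deposited values are linear signal intensities. MAS5 made those of 4 arrays of chip A, per the submitters' processing notes, and the tool for the others is not given in the sources used here. The 2% trimmed mean of each deposited array was 500.3 to 500.9. On chip A, the array taken as newborn aorta is newborn by its description, although its title gives hours post coitum.

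Control probe sets were left out. Of 26202 others, 18178 had 1 gene, 391 several and 7633 none. Of the first, 18122 gene numbers matched RefSeq (GRCr8), with 0 symbols changed. Signals were floored at the pooled median of the chip before log2. Between 46.9% and 51.8% of an array lay above it. Members, lists and settings were chosen with earlier results of these data known. All 10 members were named whatever they showed. Of each other list up to 4 genes that moved farthest the way of its median could be named, and of the pattern search the 8 with the highest r. Srf, Mrtfa, Itga7, Gucy1b1, Ppp1r14a, Myh10 and Tpm4 were chosen after their values were seen.

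Vessel and stage were fitted with limma 3.58.1 (R 4.3.3) per chip on 4 arrays, keeping probe sets that passed the floor on 2 or more. Benjamini-Hochberg adjustment ran over all 13810 probe sets, and the fit was tested on simulated data. The alternatives were another floor, scaling, reading of a gene, threshold, filter, intensity trend and adjustment per chip. Values of 1 gene of the lists are not reported here.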

Additional observations from a re-analysis of the deposited data

Results flagged for a closer look

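For 3 members the birth log2 ratio at the brightest probe set had one sign in the ductus and the other in the aorta, with 1 array per state, so the difference was not tested. Cnn1 was at -0.055 in the ductus and 0.64 in the aorta, and with median centring at 0.009 in the ductus and 0.73 in the aorta, both above 0. Myl9 was at 0.10 in the ductus and -0.05 in the aorta, and with quantile normalisation at -0.05 in the ductus and -0.11 in the aorta, where the signs no longer differ. With median centring both were above 0 too, and its second probe set had -0.03 in the ductus and 0.22 in the aorta. Cald1 was at -0.10 in the ductus and 0.05 in the aorta. For Myl9 and Cald1 both ratios were smaller than the spread between probe sets of 1 gene over all genes (0.34 in the ductus, 0.33 in the aorta). Cnn1 and Cald1 each have 1 probe set.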

How the results depend on the processing

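No paired analysis was possible because each state has 1 array per chip and no replicate numbers, and leaving out an array would leave the additive fit no residual degree of freedom. The yardstick for single gene ratios was the spread between probe sets of a gene, taken over all genes. All 70 ratios stayed within it with no floor, with a higher floor and with median centring. With quantile normalisation 68 of 70 did, the exceptions being 2 ratios of Tagln. With all probe sets averaged 57 did, 12 moved by more, and Tpm2 turned round for fetal ductus over fetal aorta, to -0.039 against 0.72.

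Counts of members at least 1.5-fold higher, with 5, 5, 5, 2, 1 and 2 in the order of comparisons in the report, moved by over 1.5 times in these cases. Under quantile normalisation there was 1 for newborn over fetal ductus and 0 for oxygen over fetal ductus. With probe sets averaged there were 3 for newborn ductus over newborn aorta (median 0.30), 3 for newborn over fetal ductus and 0 for oxygen over fetal ductus, where 2 were then lower. At a 2-fold threshold there was 1 for newborn ductus over newborn aorta, 1 for the fetal vessels and 1 for newborn over oxygen ductus. There were 0 for newborn over fetal ductus, 0 for newborn over fetal aorta and 0 for oxygen over fetal ductus. No member had a birth change 2-fold lower in the ductus. The share of all genes past 2-fold is not given here, so nothing is read from these counts about the members. Smaller moves were 7 for newborn over fetal ductus and 3 for newborn over fetal aorta under median centring, 4 for each vessel comparison under quantile normalisation, 4 for the fetal vessels with probe sets averaged, and 3 for newborn over oxygen ductus under both of the last settings.

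In the limma fit an intensity trend gave 47 vessel calls over all probe sets (5 without it), 5 of them member probe sets and 3 at a member's brightest. For birth it gave 528 (197 without it), 9 of them member probe sets and 4 at a member's brightest. Without a filter on low signals 0 probe sets were called for vessel and 0 for birth, members included. Under quantile normalisation 15 were called for vessel, 0 of them members, and 0 member probe sets for birth. The cause of these shifts was not tested. No replicates and 1 residual degree of freedom limit every call here.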
